A study of Mus musculus with 26 samples.

Results

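The transcripts of the SR proteins, the hnRNP proteins and the kinases of SR proteins were followed around the clock in the mouse choroid plexus (ChP), the tissue that makes the cerebrospinal fluid. Members were all genes with a symbol of the Srsf series or starting with Hnrnp, plus Tra2a, Tra2b, Clk1, Clk2, Clk4, Srpk1, Srpk2 and Cwc27, without pseudogenes and with a mean of at least 1 CPM (counts scaled to equal library size) in both main groups. The rule gave 39 members of 13697 genes tested and 55416 genes listed. These were 20 genes of hnRNP proteins, 11 of SR proteins, 2 of TRA2 proteins, 5 of SR protein kinases and Cwc27. No symbol that the rule allows fell under the minimum, and 2 pseudogenes were left out.

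Bulk RNA-seq of the ChP of the 4th ventricle covered 12 mice after sham surgery (Ctrl) and 12 after surgical lesion of the suprachiasmatic nucleus, the central clock (SCNx), all adult C57Bl6J males without a transgene. Both groups lived in constant darkness at sampling, and 1 mouse per group was taken every 4 h from circadian time (CT) 0 to CT44. The KO group held 2 adult males of the genotype FoxJ1-ERT2-Cre+/-; Bmal1fl/fl that received tamoxifen in the diet, in which Bmal1 can be lost only in cells that express Foxj1. They were kept in a light-dark cycle, with 1 mouse taken at Zeitgeber time (ZT) 7 and 1 at ZT18, and their ChP was cut by laser from frozen brain and sequenced with another library kit. The KO mice were also older than the Ctrl and SCNx mice and were kept at another site. No KO control of the same kit was analysed here, so genotype, tamoxifen, age, site, kit, lighting and dissection cannot be told apart.

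SR proteins carry a domain rich in arginine and serine, bind exonic enhancers and recruit the spliceosome. Members of the hnRNP family coat nascent transcripts and often act against SR proteins at the same exon, besides roles in export, stability and translation. CLK and SRPK kinases phosphorylate SR proteins, and the activity of CLK kinases is known to follow body temperature within the physiological range. Body temperature itself is not among the values analysed here.

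Libraries held 38751201 to 47335258 estimated counts in Ctrl, 41807043 to 49527655 in SCNx and 17425207 to 18059227 in KO. The summed level of 10 markers of ChP epithelium, among them the transthyretin gene, was 146494 to 170564 CPM in Ctrl and 108484 to 170727 in SCNx, against 92509 and 81257 in KO. The 10 neuron and cerebellum markers summed to a median of 18.2 CPM in Ctrl and 17.1 in SCNx, with 352 for the Ctrl mouse of CT4, 450 for the SCNx mouse of CT32, and 290 and 359 in KO. Astrocyte markers (5 genes) were highest in the same libraries, at 346 CPM, 668 CPM and, in KO, 588 and 641 CPM. The 10 hepatocyte markers reached 2378 CPM in the Ctrl mouse of CT16, over a group median of 4.51, and 11683 CPM in the SCNx mouse of CT0, over a median of 7.68. These 4 libraries stood apart from the rest. Counts of members called by the fits at an adjusted p were also taken without Ctrl CT4 and SCNx CT32. In another fit they were taken without Ctrl CT16 and SCNx CT0, but never without all 4. In bulk tissue, fewer cells of a type and less RNA per cell cannot be told apart.

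The promoters of 4 genes are shown because the genes were rhythmic in Ctrl and hold an E-box, a RORE core or a cyclic AMP element before the start. Hnrnpl, also rhythmic in Ctrl, holds a heat shock element before the start and is not printed. Each is the 250 bases upstream of a RefSeq start in GRCm38.p6, read 5′ to 3′ on the strand of the gene, with the motif in capitals. For Tra2a (chr6:49264053-49264302, minus strand) the capitals mark the cyclic AMP element TGACGTCA, for Hnrnpd (chr5:99978939-99979188, minus strand) and Hnrnpa3 (chr2:75659009-75659258, plus strand) the E-box CACGTG, and for Cwc27 (chr13:104816954-104817203, minus strand) the RORE core AGGTCA in its reverse complement.
Tra2a: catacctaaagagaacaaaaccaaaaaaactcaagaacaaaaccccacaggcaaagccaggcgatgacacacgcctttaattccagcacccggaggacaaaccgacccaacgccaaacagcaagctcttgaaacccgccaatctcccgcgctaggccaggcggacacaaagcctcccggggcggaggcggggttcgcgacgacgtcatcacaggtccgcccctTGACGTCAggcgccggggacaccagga
Hnrnpd: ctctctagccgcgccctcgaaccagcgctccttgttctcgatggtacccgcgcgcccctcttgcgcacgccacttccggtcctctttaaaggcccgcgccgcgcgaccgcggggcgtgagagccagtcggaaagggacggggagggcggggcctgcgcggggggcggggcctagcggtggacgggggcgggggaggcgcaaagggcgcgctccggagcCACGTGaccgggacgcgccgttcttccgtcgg
Hnrnpa3: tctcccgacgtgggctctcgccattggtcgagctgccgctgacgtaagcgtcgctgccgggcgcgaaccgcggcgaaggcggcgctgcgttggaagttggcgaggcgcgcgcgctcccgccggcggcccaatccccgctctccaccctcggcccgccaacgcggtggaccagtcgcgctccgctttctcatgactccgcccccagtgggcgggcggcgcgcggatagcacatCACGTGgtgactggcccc
Cwc27: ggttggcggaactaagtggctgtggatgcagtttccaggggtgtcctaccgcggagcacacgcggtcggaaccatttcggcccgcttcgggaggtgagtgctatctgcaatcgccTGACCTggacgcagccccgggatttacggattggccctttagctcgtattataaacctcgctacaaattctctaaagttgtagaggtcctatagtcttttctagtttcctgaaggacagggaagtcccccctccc

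Windows from 250 bases before to 50 after a start were searched on both strands, and 36 of the 39 members had at least 1 window, all but Clk1, Hnrnpll and Hnrnpul2. Several members have more than 1 start, so these made 50 windows. The canonical E-box CACGTG, bound by CLOCK and BMAL1, was found in 6 members (Clk2, Hnrnpa3, Hnrnpd, Hnrnpf, Hnrnph2 and Hnrnpm), in 6 of the 50 member windows (12%) and in 7.15% of all 32851 windows. The E-boxes of Hnrnpm and Hnrnph2 lay after the start. The cyclic AMP element was found in 2 members, Tra2a and Clk4, in 2 of the 50 windows (4%) and in 1.79% of all windows. The RORE core AGGTCA was found in 5 members (Cwc27, Hnrnph1, Srpk2, Srsf3 and Srsf9, 5 of 50 windows or 10%, and 16.3% of all windows) and the heat shock element GAANNTTC in 5 (Hnrnpa2b1, Hnrnpf, Hnrnpl, Srsf9 and Tra2b, 6 of 50 windows or 12%, and 7.86% of all windows). The D-box TTATGTAA was in no member window and in 0.938% of all windows. The motifs do not overlap each other in the sequences printed. A match describes these letters only.

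In Ctrl, 12 of the 39 members (30.8%) changed with a 24 h rhythm, against 10.7% of all genes tested (edgeR quasi-likelihood F test, adjusted p under 0.05 after Benjamini-Hochberg correction over all 13697 genes). They were 9 hnRNP genes of 20, 1 of 11 SR protein genes, 1 of 2 TRA2 genes, Cwc27 and none of the 5 kinase genes. Cwc27 was listed by name, and the paper had already named it among rhythmic splicing genes in these data. Its call was thus known beforehand and counts in the share of the members. Without Ctrl CT4 and SCNx CT32 the test called 16 members, as the share over all genes rose to 16.5%, and without Ctrl CT16 and SCNx CT0 it called 11, beside 12.3% of all genes. With no filter on low counts the calls of Hnrnpa0, Hnrnpa1, Hnrnpa3, Hnrnpl, Hnrnpm and Hnrnpul1 ended, which left 6 members, beside 2.77% of the 40287 genes then tested. The median fitted amplitude of the members was 0.12 in Ctrl and 0.07 in SCNx on the log2 scale, against 0.11 and 0.09 over all genes tested. Amplitude means how far the peak of the fitted curve rises over its middle.

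The rhythmic members are grouped here by a fitted peak in the subjective day or in the subjective night. In 7 of them (Hnrnpl, Hnrnpa0, Hnrnpll, Cwc27, Hnrnpd, Hnrnpul1 and Hnrnpa1) the fitted peak lay between CT3.87 and CT10.3, in the subjective day. In 5 (Tra2a, Hnrnpm, Srsf10, Hnrnpc and Hnrnpa3) it lay between CT17.4 and CT21.0, in the subjective night. These spans run from the earliest to the latest peak of the members in each group, so no rhythmic member can lie outside them. The peak times of all rhythmic genes are not given, so the spans are not read as particular to the members.

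**Figure D1:**
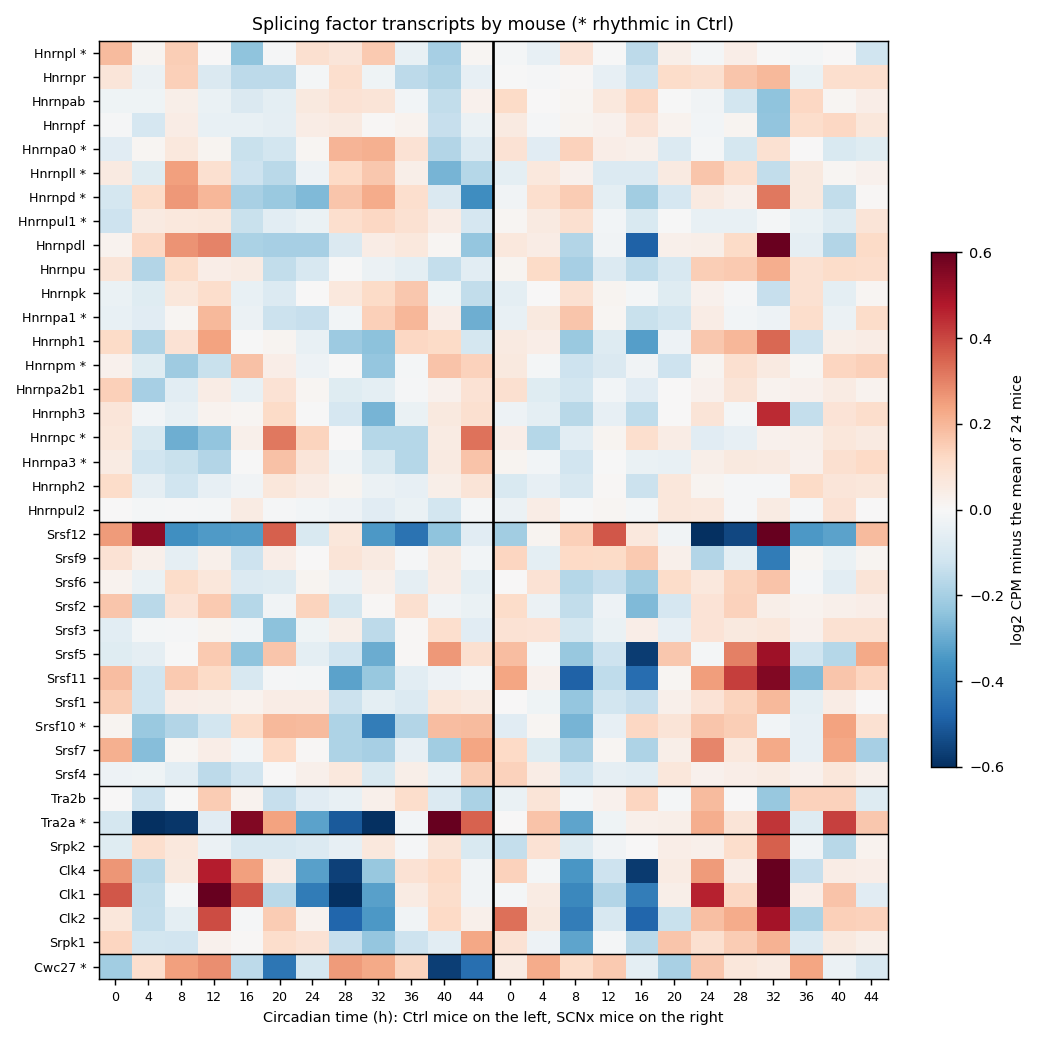
Heat map of the 39 members (rows, by role and then by fitted peak time in Ctrl) in 12 Ctrl and 12 SCNx mice (columns, circadian time in h). Colour is log2 CPM minus the mean of the 24 mice, cut at 0.6 either way, and asterisks mark the 12 members rhythmic in Ctrl. Bands repeat over both days in Ctrl for Tra2a, Hnrnpc, Hnrnpd and Cwc27, and SCNx CT32 stands out among the kinases.

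Tra2a (ENSMUSG00000029817), which encodes an activator of splicing related to SR proteins, had the largest amplitude of the members in Ctrl. Its level in Ctrl was 36.9 CPM at the lowest (CT4), 56.4 at the median and 97.1 at the highest (CT40). The 2 mice of the same phase, CT16 at 88.0 CPM and CT40 at 97.1, were the highest of each day, and CT4 and CT32 (37.6 CPM) the lowest. The fitted curve had an amplitude of 0.63 ± 0.05 (SE, log2, n = 12 mice), a 2.40-fold range from trough to peak, and a peak at CT17.4 ± 0.31 h (SE, adjusted p = 2.46e-05, edgeR quasi-likelihood F test). In SCNx its level was 48.0 CPM at the lowest (CT8), 62.2 at the median and 80.6 at the highest (CT32). All 12 SCNx mice lay inside the Ctrl range, and the fitted amplitude was 0.05 ± 0.09 (SE, log2, adjusted p = 0.899 with the same edgeR test). The library with the highest Tra2a in SCNx is the one with the highest neuron markers.

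Hnrnpc (ENSMUSG00000060373) encodes a protein that binds uridine-rich stretches of nascent RNA and blocks cryptic splice sites. Its level in Ctrl was 92.4 CPM at the lowest (CT8), 114 at the median and 142 at the highest (CT44). On the first day the highest mouse was CT20, at 141 CPM, so both days peaked at the same phase. The amplitude was 0.26 ± 0.03 (SE, log2, n = 12) with a peak at CT21.0 ± 0.42 h (SE, adjusted p = 7.87e-06, edgeR). In SCNx the 12 mice lay between 101 and 121 CPM around a median of 115, all inside the Ctrl range, with an amplitude of 0.08 ± 0.02 (SE, log2). The unadjusted p for a rhythm in SCNx was 0.0182 and the adjusted p 0.233 (edgeR quasi-likelihood F test).

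Srsf10 encodes an SR protein that is known to repress splicing when heat shock removes its phosphates. It was lowest at 66.7 CPM (CT32), with a median of 86.0 and a highest value of 102 (CT20) in Ctrl, and fitted a peak at CT19.6 ± 0.47 h (SE) with an amplitude of 0.26 ± 0.03 (SE, log2). In SCNx it ranged from 73.1 to 105 CPM, so the groups overlapped over most of their range. Hnrnpa3, a paralog of Hnrnpa1 that binds RNA in the nucleus, ranged from 330 CPM (CT12) to 422 (CT20) around a median of 370 in Ctrl, and peaked at CT21.0 ± 0.52 h (SE). Hnrnpm, whose protein regulates alternative exons, ranged from 82.5 CPM (CT32) to 109 (CT16) around 96.4 in Ctrl, and peaked at CT19.0 ± 0.79 h (SE). Their adjusted p-values for a rhythm in Ctrl were 0.000937, 0.00291 and 0.0196 in that order (edgeR quasi-likelihood F test).

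Hnrnpd (ENSMUSG00000000568) encodes AUF1, which binds AU-rich elements and controls the decay of messenger RNA. In Ctrl it was lowest at 67.0 CPM (CT44), with a median of 87.3 and a highest value of 104 (CT8). The highest mice of the days were CT8 and CT32 and the lowest CT20 and CT44, the times at which Hnrnpc was highest. The fitted peak was at CT8.21 ± 0.37 h (SE), with an amplitude of 0.28 ± 0.03 (SE, log2, adjusted p = 4.55e-05, edgeR). In SCNx its level was 75.1 CPM at the lowest (CT16), 87.8 at the median and 108 at the highest (CT32), with an amplitude of 0.15 ± 0.04 (SE, log2) and a peak at CT6.05. The highest mouse of each day was again at CT8 and CT32, but SCNx CT32 is the library with the highest neuron markers. Without it the adjusted p for a difference of the Hnrnpd rhythm between the groups was 0.0189, against 0.125 with all mice (edgeR). Hnrnpd had the smallest p for a rhythm in SCNx of the members, 0.000787 unadjusted and 0.138 adjusted in the edgeR quasi-likelihood F test.

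Cwc27 (ENSMUSG00000021715) encodes a cyclophilin of the activated spliceosome. Its level in Ctrl was 5.14 CPM at the lowest (CT40), 7.60 at the median and 9.20 at the highest (CT12), and the 4 mice at CT20, CT40, CT44 and CT0 were the lowest. The fit gave a 1.69-fold range, an amplitude of 0.38 ± 0.06 (SE, log2) and a peak at CT7.54 ± 0.56 h (SE, adjusted p = 0.000272, edgeR). The SCNx mice lay between 6.63 and 8.94 CPM around a median of 7.92, all inside the Ctrl range. Its values rest on 220 to 433 estimated counts a library.

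The other 5 daytime members had amplitudes between 0.11 and 0.18 on the log2 scale. Hnrnpll, a regulator of CD45 splicing in lymphocytes, ranged from 47.7 CPM (CT40) to 68.7 (CT8) around a median of 58.0 in Ctrl and peaked at CT6.89 ± 0.83 h (SE). Hnrnpa0, which binds AU-rich messenger RNAs, ranged from 50.2 CPM (CT40) to 65.8 (CT32) around 57.2 in Ctrl and peaked at CT6.57 ± 0.75 h (SE). Hnrnpa1, a repressor of exon inclusion, ranged from 174 CPM (CT44) to 245 (CT36) around 210 in Ctrl and peaked at CT10.3 ± 0.76 h (SE). Read sharing between Hnrnpa1 and its near-identical pseudogenes makes its value uncertain. Hnrnpl, which binds CA repeats, ranged from 133 CPM (CT16) to 179 (CT0) around 158 in Ctrl and peaked at CT3.87 ± 1.01 h (SE). Hnrnpul1 ranged from 97.8 CPM (CT16) to 117 (CT32) around 111 in Ctrl and peaked at CT8.44 ± 0.82 h (SE). Adjusted p-values of these 5 in Ctrl were 0.00878 to 0.0224 (edgeR quasi-likelihood F test). In all 5 the SCNx mice lay inside the Ctrl range.

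**Figure D2:**
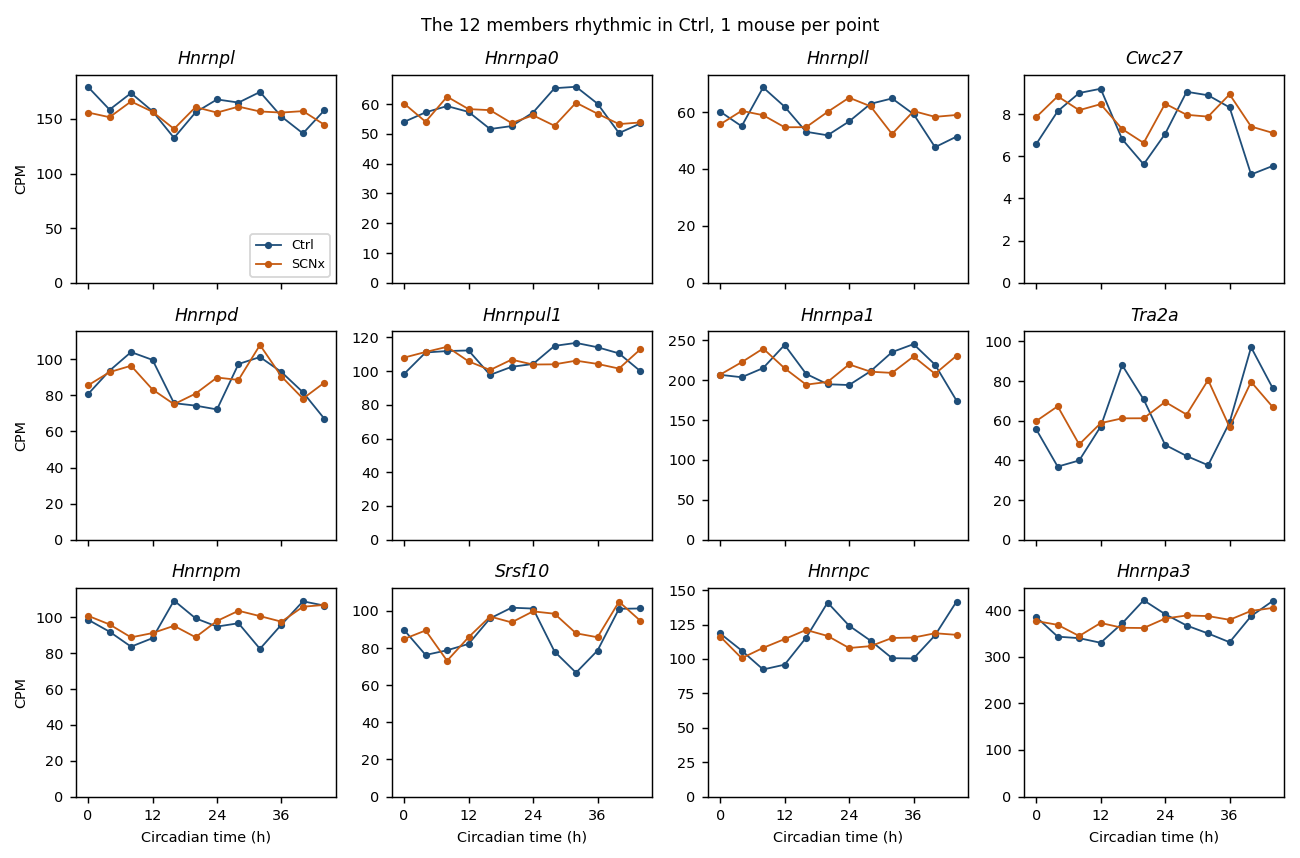
CPM (y, from 0) against circadian time in h (x) for the 12 members rhythmic in Ctrl, in order of fitted peak time, with 1 mouse per point and lines joining the mice of a group. Ctrl curves rise and fall in both days, from 36.9 to 97.1 CPM in Tra2a, while the SCNx mice of Tra2a run from 48.0 to 80.6.

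Members just outside the threshold were Hnrnpk (adjusted p = 0.0521, peak CT9.27), Hnrnpr (0.0657, CT4.09) and Srpk1 (0.0792, CT20.4) in the edgeR quasi-likelihood F test. Just inside were Hnrnpul1, Hnrnpl and Hnrnpm, with adjusted p-values of 0.0196 to 0.0224 in the same edgeR test. A rank test of the eJTK type, at Q under 0.4, called 30 of the 39 members in Ctrl, against 49.8% of all genes tested, and none of either in SCNx (0% of all genes). At Q under 0.05 it called 9 members in Ctrl, and the share over all genes is not given. Cwc27 (rank test Q = 0.114), Hnrnpl (0.110), Hnrnpul1 (0.156) and Hnrnpll (0.0752), rhythmic by edgeR, did not pass there. Hnrnph3 (Q = 0.0429), not called by edgeR, did.

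The highest mouse of the first day and that of the second lay within 4 h of each other in phase for 34 of 39 members in Ctrl, against 67.0% of all genes, and for 21 of 39 in SCNx, against 59.1% of all genes. They lay at the same phase for 17 members in Ctrl (43.6%, against 30.3% of all genes) and 6 in SCNx (15.4%, against 15.4% of all genes). The difference between the groups was not tested.

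In SCNx, edgeR's quasi-likelihood F test called none of the 39 members rhythmic, as it called 0% of all genes at an adjusted p under 0.05. At an unadjusted p under 0.05 it called 4 members (Hnrnpc, Hnrnpd, Srsf12 and Srsf6), against 14.8% of all genes. DESeq2 called 1 member, Hnrnpd (adjusted p = 0.0158), beside 3.15% of all genes, and limma none, beside 0%. All 12 members called in Ctrl had a smaller fitted amplitude in SCNx, and among the genes called in Ctrl 98.8% did. Since these members were called for their rhythm in Ctrl, that count was not read further. Over all 39 members the amplitude was smaller in SCNx for 28, or 71.8%, against 55.3% of all genes.

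The rhythm itself differed between Ctrl and SCNx in 2 members, Hnrnpc (adjusted p = 0.00402) and Tra2a (adjusted p = 0.00659), by edgeR's quasi-likelihood F test of the difference of both terms, against 2.12% of all genes. At an unadjusted p under 0.05 the difference was called in 15 of 39 members (38.5%), against 15.1% of all genes. For Hnrnpd the adjusted p of the difference was 0.125, for Hnrnpll 0.111 and for Cwc27 0.172 (edgeR). A loss of rhythm in SCNx was thus not shown for the other 10 rhythmic members. Without Ctrl CT4 and SCNx CT32, the libraries rich in neuron markers, the difference was called in 4 members, with Hnrnpd (adjusted p = 0.0212) and Hnrnpll (0.0437) added in the same edgeR test, while the share over all genes rose to 3.74%. DESeq2 called the difference in 3 members, with Hnrnpa3 added (adjusted p = 0.0364), beside 4.30% of all genes.

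**Figure D3:**
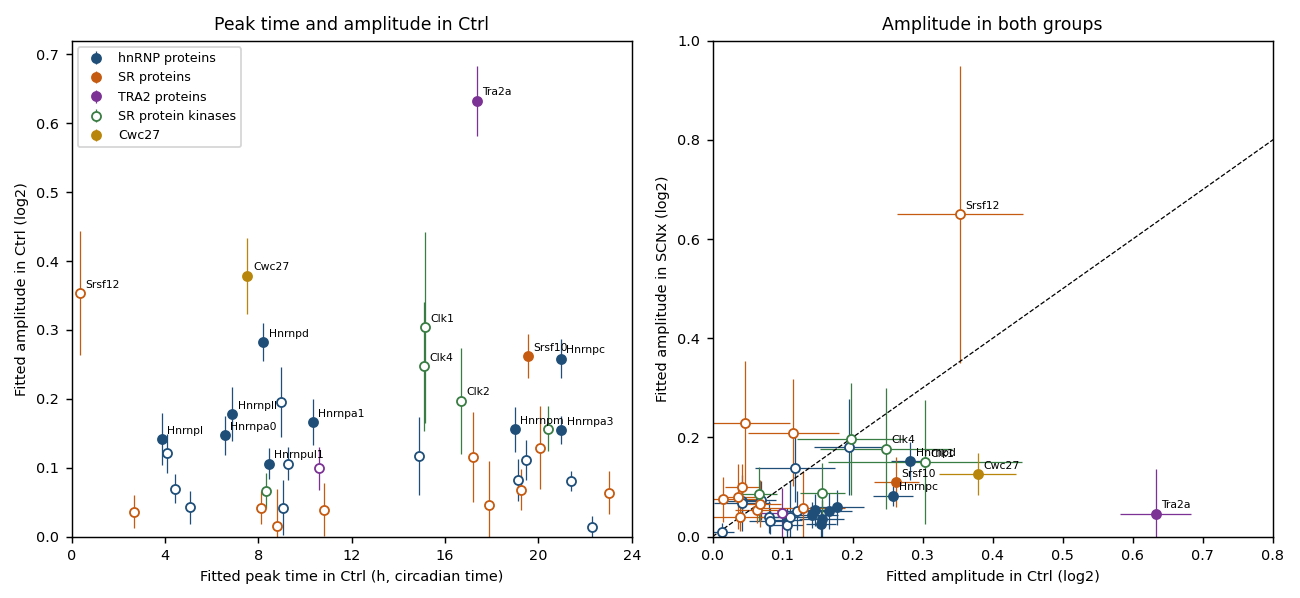
Left, fitted amplitude in Ctrl (log2) against fitted peak time in Ctrl (h) for the 39 members. Right, fitted amplitude in SCNx against that in Ctrl, with equal amplitudes on the dashed line, bars showing the SE, filled points the 12 members rhythmic in Ctrl and colours the role. Tra2a sits far to the right, at 0.63 in Ctrl and 0.05 in SCNx, and Srsf12 has the widest bars.

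None of the 5 kinase genes passed the main edgeR test in Ctrl or SCNx. Srpk1 was called in Ctrl in 6 of 35 alternatives. Among these were DESeq2 (adjusted p = 0.0438) and edgeR without Ctrl CT4 and SCNx CT32 (adjusted p = 0.0334). Clk1 was 25.7 CPM at the lowest (CT28), 45.3 at the median and 69.7 at the highest (CT12) in Ctrl. Its first day in Ctrl ran from 41.1 to 69.7 CPM and its second from 25.7 to 49.3, so the days differed in level, and the fitted amplitude of 0.30 ± 0.14 (SE, log2) with a peak at CT15.1 had an adjusted p of 0.264 (edgeR). In SCNx Clk1 ran from 34.5 to 47.5 CPM on the first day and from 43.9 to 69.7 on the second, with the highest value at CT32. Clk4 ranged from 15.1 to 30.8 CPM in Ctrl (adjusted p = 0.286) and Clk2 from 14.7 to 26.7 (adjusted p = 0.366, edgeR). All 3 were highest at CT12 and lowest at CT28 in Ctrl, and highest at CT32 and lowest at CT16 in SCNx. With a linear trend over the days added for each group, Clk1 and Clk4 passed for a rhythm in Ctrl and for a difference of the rhythm (adjusted p = 0.0233 for Clk1 and 0.0322 for Clk4 in edgeR), and Hnrnph1 for the difference. Srpk1 had a mean of 43.0 ± 4.10 CPM and Srpk2 of 89.4 ± 4.66 CPM in Ctrl (SD, n = 12).

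The CLK transcripts moved together over the mice of a group, a relation computed after their values were seen. Each mouse is also a time point, and the permutations ignored time. A shared time course and covariation between mice cannot be told apart here, and the p-values do not separate them. Other pairs of genes were not correlated, so the relation is not read as particular to the CLK genes. Hnrnph1 too was highest at CT12 in Ctrl and at CT32 in SCNx. It was lowest at CT16 in SCNx but at CT32 in Ctrl. Over the 12 Ctrl mice, Clk1 and Clk4 had Pearson's r = 0.98 (permutation p = 1e-05, the smallest that 100000 permutations can give) and Spearman's rho = 0.97, with r = 0.95 without the 2 mice farthest from the median of Clk1. In SCNx r was 0.92 and rho 0.74 (permutation p = 4e-05 and 0.00789), and r = 0.85 without the 2 farthest mice. Clk2 with Clk1 in Ctrl had r = 0.78 (permutation p = 0.00305) and rho = 0.55 (permutation p = 0.0657), and r was 0.39 without 2 mice, so this relation rests on them. Clk2 with Clk4 in Ctrl had r = 0.82 and rho = 0.65 (permutation p = 0.00144 and 0.0261), and r = 0.51 without 2 mice. In SCNx Clk2 had r = 0.82 and rho = 0.71 with Clk1 (permutation p = 0.00119 and 0.0119) and r = 0.91 and rho = 0.87 with Clk4 (permutation p = 3e-05 and 0.00045), and r = 0.63 and r = 0.82 without 2 mice. The family held 6 relations, whose Benjamini-Hochberg adjusted permutation p-values for r were 6e-05 to 0.00305 and for rho 6e-05 to 0.0657. Without the library of each group with the most neuron markers, r for Clk1 and Clk4 was 0.98 in Ctrl and 0.87 in SCNx.

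**Figure D4:**
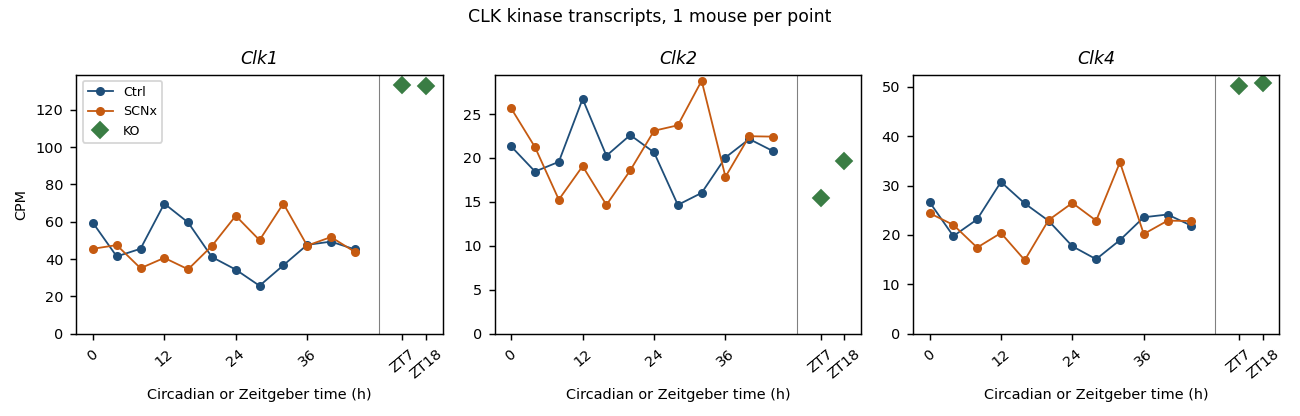
CPM (y, from 0) of Clk1, Clk2 and Clk4 against circadian time in h for Ctrl and SCNx, and at ZT7 and ZT18 for KO (right of the line), with 1 mouse per point. All 3 are highest at CT12 in Ctrl and at CT32 in SCNx, and the KO values of Clk1 (133 at both times) and Clk4 (50.1 and 50.7) lie above every other mouse. KO libraries were scaled apart from the other groups.

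SCNx CT32 was the highest SCNx library for 17 of 39 members, and for 25.8% of all genes. Srsf12 shows it most plainly, with 6.34 CPM in that library against at most 1.92 in any Ctrl library. Srsf12 also had the thinnest counts of the members, from 37 to 287 estimated counts a library. The part of brain tissue in this was not tested beyond leaving the library out. SCNx CT16 was the lowest SCNx library for 14 members, against 9.31% of all genes, and SCNx CT8 for 12, against 9.98%.

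Among SR proteins other than Srsf10, no gene passed for a rhythm, and their adjusted p-values in Ctrl ran from 0.361 for Srsf4 to 0.973 for Srsf2 (edgeR quasi-likelihood F test). The founding member Srsf1 had a mean of 194 ± 11.1 CPM and Srsf2 of 112 ± 9.13 CPM in Ctrl (SD, n = 12). Srsf3, whose protein also serves in export of messenger RNA, had a mean of 103 ± 6.29 CPM, and Srsf7, a relative with the same role, 43.3 ± 4.96 CPM. The means of Srsf4, Srsf5 and Srsf6, which form a branch of the family, were 33.1, 230 and 107 CPM. Srsf9 had a mean of 35.6 CPM, Srsf11 of 64.8 and Srsf12 of 1.28 in Ctrl. Tra2b, the paralog of Tra2a, had a mean of 77.4 ± 5.43 CPM in Ctrl and an adjusted p of 0.244 (edgeR).

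The remaining 11 hnRNP genes did not pass for a rhythm in Ctrl. Hnrnpk, which binds C-rich RNA, had a mean of 390 ± 25.4 CPM, and Hnrnpa2b1, a reader of RNA sorting signals, 384 ± 24.1 (SD, n = 12). Hnrnpu, a scaffold protein of chromatin, had a mean of 300.4 ± 19.5 CPM, and Hnrnpul2 175 ± 4.71. The paralogs Hnrnph1, Hnrnph2, Hnrnph3 and Hnrnpf, which bind G-rich runs, had means of 158, 96.0, 23.2 and 158 CPM. Hnrnpab had a mean of 137 CPM, its relative Hnrnpdl 44.9 and Hnrnpr 95.5 in Ctrl. Near-identical pseudogenes of this family can share reads, and the values of such members are uncertain to that degree.

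No member passed the test for a different mean level in SCNx and Ctrl. The edgeR quasi-likelihood F test called none at an adjusted p under 0.05 or under 0.25, and 0% of all genes at either. DESeq2 called no member at either threshold, beside 0.102% and 1.36% of all genes, and limma none, beside 0%. At an unadjusted p under 0.05 there were 3 members, against 9.37% of all genes. These were Srsf3 (log2 fold change 0.07 ± 0.03, SE, unadjusted p = 0.0362), Hnrnpul2 (0.04 ± 0.02, p = 0.0362) and Hnrnpr (0.09 ± 0.04, p = 0.0368), all higher in SCNx, each with an adjusted p of 0.495 (edgeR). Next came Hnrnpu (0.08 ± 0.05, SE) and Srsf12 (0.39 ± 0.27), which was -0.037 without SCNx CT32. Values over the 39 members ran from -0.04 (Hnrnpl) to 0.39 (Srsf12) on the log2 scale, and 30 were above 0, against 56.5% of all genes. The median size of the difference was 0.03 for the members and 0.06 over all genes.

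Of 94 other genes of the spliceosome and of splicing regulation, 92 were tested and 8 were rhythmic in Ctrl (8.70%, against 10.7% of all genes), none in SCNx. The U1 snRNP group had 1 of 6, the step factors 1 of 16, the exon junction and SR-related group 2 of 9 and the other regulators 4 of 19. The Sm and LSm ring had 0 of 14, the U2 snRNP group 0 of 14, the tri-snRNP 0 of 11 and the other kinases of SR proteins 0 of 3. Khdrbs1 peaked at CT7.02, Srrm1 at CT7.70, Eif4a3 at CT6.99 and Mbnl1 at CT9.39. Snrpa peaked at CT20.4, Tardbp at CT19.7 and Ppil1 at CT21.6. The first 4 of these peaks lay in the daytime span of the members, and the night peaks lay in or, for Ppil1, just after the night span. The spans were set by the peaks of the members, and the share of all rhythmic genes inside them is not given. Lsm5, at 1.69 CPM in Ctrl, had an adjusted p of 0.361 (edgeR).

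Reference genes gave the phase frame. Cirbp, a cold-inducible RNA-binding protein, peaked at CT8.02 ± 0.47 h (SE, amplitude 0.82 ± 0.10, log2, adjusted p = 0.00120, edgeR) and Rbm3 at CT10.9 ± 0.43 h (amplitude 0.59 ± 0.07, adjusted p = 0.00200). Among clock genes in Ctrl, Nr1d1 peaked at CT7.55, Dbp at CT10.2, Per2 at CT14.8 and Arntl, which encodes BMAL1, at CT22.9. The rhythm differed in SCNx for Rbm3 (adjusted p = 0.0268), and the adjusted p was 0.130 for Cirbp (edgeR).

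In KO, Arntl was at 11.1 CPM at ZT7 and 9.06 at ZT18, against 2.01 to 39.4 CPM over the Ctrl times. Counts per gene do not separate the floxed part, and cells without Foxj1 keep the gene, so this level does not check the label. No member passed 1.5-fold between night and day in KO, while 6.90% of all genes did with the higher level at night and 6.07% with the lower, with 1 mouse a time and no test. In Ctrl 4 members passed for CT20 against CT8 (Cwc27, Hnrnpc, Srsf12 and Tra2a, 10.8% of all genes) and 4 for CT44 against CT32 (Cwc27, Hnrnpd, Srsf10 and Tra2a, 11.5%). In SCNx none passed for CT20 against CT8 (9.32% of all genes) and 3 for CT44 against CT32 (Clk1, Clk4 and Srsf12, 18.4%), in all of which the CT32 library was the higher. Tra2a was 54.0 CPM at ZT7 and 48.3 at ZT18 in KO, a night-minus-day difference of -0.16 (log2), against 0.82 and 1.03 in Ctrl. Hnrnpc was 128 and 102 CPM in KO, a difference of -0.32, against 0.61 and 0.49 in Ctrl. Cwc27 had -0.24 in KO and -0.68 in both days of Ctrl. The times, lighting, kits and scaling differ, so these values stand side by side only.

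**Figure D5:**
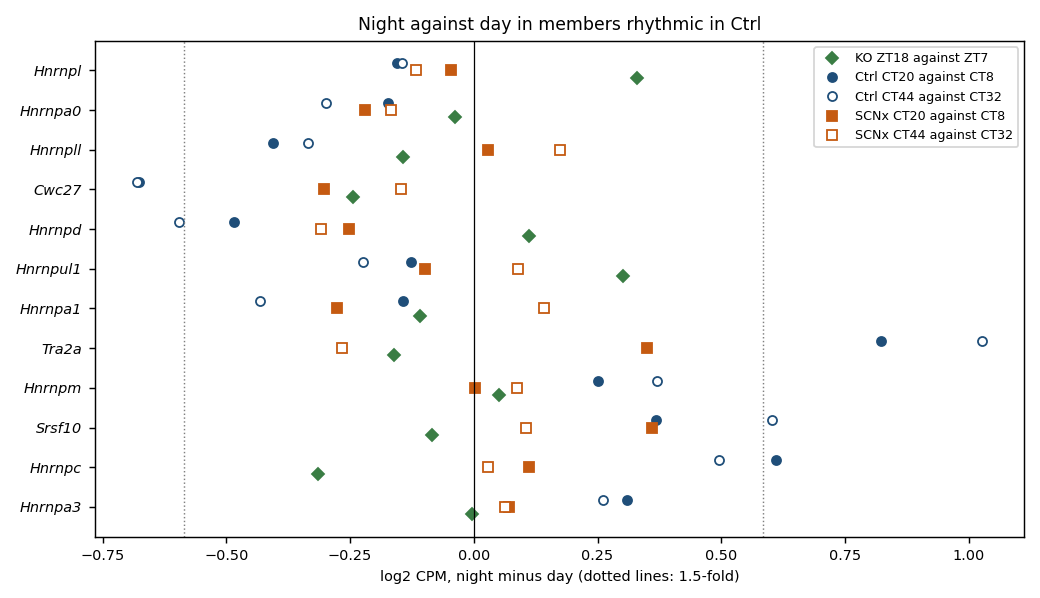
Night minus day in log2 CPM (x) for the 12 members rhythmic in Ctrl (y, by peak time), with filled and open circles for the first and second day of Ctrl, squares for SCNx and diamonds for KO, and dotted lines at 1.5-fold. Tra2a lies at 0.82 and 1.03 in Ctrl and at -0.16 in KO, and no diamond passes a dotted line.

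By level, 11 of 39 members lay above all 12 Ctrl mice in both KO libraries (28.2%, against 17.4% of all genes) and 6 lay below all of them (15.4%, against 41.3%). Above were Clk1, Clk4, Cwc27, Hnrnph1, Hnrnpm, Hnrnpr, Hnrnpu, Srpk2, Srsf7, Srsf11 and Srsf12. Clk1 was at 133 CPM in both KO mice against a highest Ctrl value of 69.7, Cwc27 at 20.1 and 17 against 9.20, and Hnrnpu at 483 and 503 against 332. Below were Hnrnpa0, Hnrnph2, Hnrnpl, Hnrnpul2, Srsf2 and Srsf6, with Hnrnpl at 82.6 and 104 CPM against a lowest Ctrl value of 133. The mitochondrial share of counts was 21.8% and 25.1% in KO and 3.92% to 8.77% in Ctrl. KO libraries were scaled by TMM apart from Ctrl, so the CPM of KO and Ctrl share no common TMM scaling. These level comparisons are descriptive only. The genotype and the kit, which for KO takes total RNA and not messenger RNA, cannot be told apart.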

How the data were processed

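RNA was measured in the ChP of 12 Ctrl, 12 SCNx and 2 KO mice. The authors ran nf-core/rnaseq on single-end reads against GRCm39 and deposited estimated counts per gene from Salmon 1.9.0, neither normalized nor pooled. These were rounded to whole numbers. Genes had to reach 1 CPM on average in each of Ctrl and SCNx, and counts were scaled by TMM in edgeR 4.0.16 (R 4.3.3). The KO libraries were scaled apart from Ctrl and SCNx, over the same genes. Rhythms were fitted to the 24 libraries as a 24 h cosine and sine beside the mean of each group, levels as group means alone, and both were tested by quasi-likelihood F tests whose p-values were adjusted after Benjamini and Hochberg. With 1 mouse per time, p-values of rhythms measure the spread of mice around the fitted curve. Those of levels measure the spread around the group mean, which includes change with time of day. With the cosine and sine beside the mean, the level test called 0 members at an adjusted p under 0.25, beside 1.45% of all genes (edgeR). Standard errors of amplitudes and peaks come from log2 CPM with a prior count of 1. CPM is not per length, so levels are not compared between genes. Alternatives were DESeq2 1.42.0 and limma 3.58.1, other scalings, filters and designs, a rank test (132 templates, 200000 random orders), and each mouse left out. The fits were tested on simulated data. Every member is named, with values per library for those rhythmic in Ctrl, levels for the 5 smallest p, and at most 8 other splicing genes. The values of 1 gene of the latter list are not reported here. Markers of 8 cell classes were summed. Of these, oligodendrocyte markers ran from 73.3 to 168 CPM outside SCNx CT32 (292) and KO (352 and 461), endothelium markers from 89.9 to 237, macrophage markers from 35.0 to 70.8 and fibroblast markers from 269 to 489. Depth limits precision little, as the smallest Ctrl or SCNx library held 38751201 counts. Promoter sequences are from RefSeq on GRCm38.p6, and no coordinate was moved between builds. Members and lists were chosen with earlier results of these data known. Python 3.11.15, numpy 2.4.6, pandas 2.3.3, scipy 1.17.1 and matplotlib 3.10.9 served the rest.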

Additional observations from a re-analysis of the deposited data

Results flagged for a closer look

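Here 2 members are listed because their rhythm differed between the groups by a test of the difference itself. For Hnrnpc the adjusted p of the difference was 0.00402 (edgeR quasi-likelihood F test), with a fitted amplitude of 0.26 in Ctrl and 0.08 in SCNx (log2). For Tra2a it was 0.00659 (edgeR), with 0.63 in Ctrl and 0.05 in SCNx. Both were called in all 33 alternative fits of the difference, with adjusted p-values of at most 0.0173 for Hnrnpc and 0.0188 for Tra2a.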

How the results depend on the processing

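Hnrnpc, Tra2a, Hnrnpd and Srsf10 were called rhythmic in Ctrl in all 35 alternatives run for them, while Hnrnpl was called in 28, Hnrnpul1 in 30 and Hnrnpm in 31. The count in Ctrl was 6 without a filter on low counts (2.77% of 40287 genes), 30 by the rank test at Q under 0.4 (49.8% of all genes), and 10 to 17 with 1 mouse left out (6.70% to 16.6% of all genes), highest without SCNx CT32, where the share of all genes was highest too. At Q under 0.05 the rank test called 9, a count whose share over all genes is not given. With TMM factors from all listed genes, chosen after seeing the data, it stayed at 12 with Hnrnpul1 lost and Srpk1 gained. In SCNx DESeq2 called 1 member (3.15% of all genes) and the others 0, also with each mouse left out. Beside these counts of 0, the share of all genes was 3.44% of 40287 without a filter on low counts. It was 0% to 0.0438% with 1 mouse left out, and 0% in the other settings. The rhythm differed in 5 members with a linear trend per group (2.49% of all genes), in 4 without Ctrl CT4 and SCNx CT32 (3.74%), in 3 by DESeq2 (4.30%), and in 2 to 3 with 1 mouse left out (1.19% to 3.44%). For levels every alternative gave 0 members at both thresholds, and the 5 named members had adjusted p-values of at least 0.302. The share of all genes was at most 0.102% under 0.05 (DESeq2) and at most 2.15% under 0.25 (without SCNx CT36). A count of 0 members is near these shares. The level of Srsf12 turned to -0.032 in DESeq2 and ran from -0.037 (without SCNx CT32) to 0.46 with 1 mouse left out. With CT16 in place of CT20, 1 member passed 1.5-fold against CT8 in Ctrl and 0 in SCNx. With CT40 in place of CT44, 3 members passed against CT32 in Ctrl and 4 in SCNx. Shares over all genes are not given for these swaps, so the counts are not read further. Causes not shown by the setting itself were not tested. No paired analysis was possible because each mouse was sampled once and group and time label no shared animal, and circadian time as a block called 0 members for levels.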
